A study of Mus musculus with 8 samples.

Results

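Transcripts of 10 complement genes were followed on 8 whole-genome arrays of mouse macrophages: C1qa, C1qb, C1qc, C3, C4b, Cfb, Cfp, C3ar1, C5ar1 and Vsig4. They were chosen by name, as were the gene lists below, with earlier results of these data known. Counts among them set beside the share of all features are therefore descriptive. Every probe designed on a RefSeq transcript of one of the 10 was taken. This gave 11 of the 39429 gene probes (C3 had 2), and all 11 were well above background on all 8 arrays. The 10 genes stood among 20738 tested features. The arrays compared 4 samples of wild-type mice (WT 1 to 4) with 4 of mice lacking the prostaglandin E2 receptor EP2 (EP2KO 1 to 4), which is encoded by Ptger2. Every mouse, of either genotype, had received LPS (endotoxin of bacteria, a stimulus for macrophages), and all are labelled male. The strain, age, LPS dose, time and source of the macrophages, and the kind of EP2 allele, are not given in the sources used here. Whether each sample is a mouse of its own is not stated, and the p-values therefore reflect a spread that may be technical.

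Complement is a cascade of blood and tissue proteins that tags microbes and dying cells for uptake. In the classical pathway C1q, built from the chains A, B and C, binds its target and leads to cleavage of C4 and C2. In the alternative pathway C3 and factor B (Cfb) form an amplifying enzyme that properdin (Cfp) stabilises. Fragments of C3 and C5 attract and activate cells through the receptors C3aR1 and C5aR1, and VSIG4 (CRIg) on resident macrophages captures particles coated with C3 fragments. Macrophages make C1q and properdin themselves, whereas much of the C3, C4 and factor B in the body comes from the liver and from stromal cells. EP2 signals through cyclic AMP.

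The defining macrophage markers were present: 11 of 11 measured were well above background on all arrays, among them Adgre1 (F4/80) and Csf1r. Markers of other cell types were as well, so detection does not single out macrophages: this held for 10 of 10 B cell genes, 8 of 9 each of neutrophils, dendritic cells and mast cells, 7 of 9 of T and NK cells, and 13 of 15 of fibroblasts and mesothelium. Of 10 hepatocyte genes it held for 1 (Tat), and Alb was well above background on 3 arrays. Ptger2 was lower on all EP2KO arrays, by a log2 difference of -1.76 ± 0.17 (SE; limma adjusted p = 0.0616). The adjusted p was 0.0328 with the slide as a block, which passes, and 0.217 with the replicate block. Both probes of Xist exceeded background clearly on all 8 arrays and those of the Y-linked Ddx3y, Eif2s3y and Kdm5d on 0, with Uty above it by 1 probe on 1 array, which goes against the male label. There were 2 slides, read by the scanner on separate days, each with 2 arrays per genotype: WT 1, WT 2, EP2KO 1 and EP2KO 2 on slide 1, the others on slide 2. On both slides WT took positions 1 and 2 and EP2KO positions 3 and 4, so position and genotype cannot be told apart. In these bulk samples fewer cells of a type and less RNA per cell cannot be told apart either.

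RefSeq's promoter table (build GRCm38.p6) held 7 of the 10 genes, all but C1qa, C4b and Cfb. The 200 bases before the annotated start are printed for 4 of them: C1qb and C1qc, neighbours on chromosome 4 with C1qa next to them, whose signals ran together over the arrays; Vsig4, the gene with the largest difference between genotypes; and C3, the gene whose differences on the 2 slides were farthest apart. Capitals mark the short motifs found, read on both strands within 250 bases. All 4 genes lie on the minus strand and are written 5′ to 3′.
C1qb, chr4:136886201-136886400: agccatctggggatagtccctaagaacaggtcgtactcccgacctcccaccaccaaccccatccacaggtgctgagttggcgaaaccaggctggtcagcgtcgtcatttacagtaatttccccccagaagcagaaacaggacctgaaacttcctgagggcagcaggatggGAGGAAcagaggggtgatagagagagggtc
C1qc, chr4:136892915-136893114: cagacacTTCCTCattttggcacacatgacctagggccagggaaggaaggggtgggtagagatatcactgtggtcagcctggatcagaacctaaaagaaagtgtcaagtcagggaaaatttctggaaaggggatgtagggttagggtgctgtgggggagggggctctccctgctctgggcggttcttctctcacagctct
Vsig4, chrX:96293439-96293638: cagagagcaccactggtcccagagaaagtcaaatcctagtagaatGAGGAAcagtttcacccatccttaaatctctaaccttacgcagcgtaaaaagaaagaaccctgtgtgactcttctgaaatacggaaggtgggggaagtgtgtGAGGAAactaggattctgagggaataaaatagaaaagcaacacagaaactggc
C3, chr17:57228137-57228336: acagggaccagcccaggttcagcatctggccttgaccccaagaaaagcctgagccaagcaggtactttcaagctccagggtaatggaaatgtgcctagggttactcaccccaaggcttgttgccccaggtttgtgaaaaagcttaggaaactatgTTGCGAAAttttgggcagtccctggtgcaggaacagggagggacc
The motif GAGGAA, a core bound by the myeloid factor PU.1, stood in 3 of the 7 windows (C1qb; C1qc, where it reads TTCCTC on the other strand; and Vsig4, which had 2 copies), against 23.3% of 32817 windows in the table. TTGCNNAA, a C/EBP core, stood in C3 only, 45 bases before the start, against 9.57% of all windows. An NF-kB form stood in C3ar1 only (1.41%). The cyclic AMP response element TGACGTCA (1.55%), the STAT form TTCNNNGAA (7.01%) and an interferon response form (2.97%) were in none of the 7 windows. A match is a run of letters, not a measured binding site.

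No complement gene passed the comparison of EP2KO with WT. Of the 10, 0 passed at a limma adjusted p of 0.05, where 0.00964% of all features did (2 of 20738, neither of them a complement gene). With the slide as a block the count was 0 again, against 0.0193%. At an unadjusted p under 0.05, 1 gene was higher (Vsig4) and 1 lower (C3), against 1.98% of all features. With the slide as a block 5 stood at an unadjusted p under 0.05 (C4b and Vsig4 higher, C3, Cfb and C5ar1 lower), against 7.34% of all features, 2.49% higher and 4.85% lower. The genotypes did not overlap for 2 of 10 genes, Vsig4 and C3 (the latter by its brighter probe only), and for 1.38% of all features. The median difference of the 10 was -0.24, and that of all features -0.03, on the log2 scale. Differences here are EP2KO minus WT in log2 units with the standard error (SE) of the fit over 4 arrays per genotype. Signals are multiples of each array's 75th percentile, a scaling that lets arrays but not different probes be compared.

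**Figure D1:**
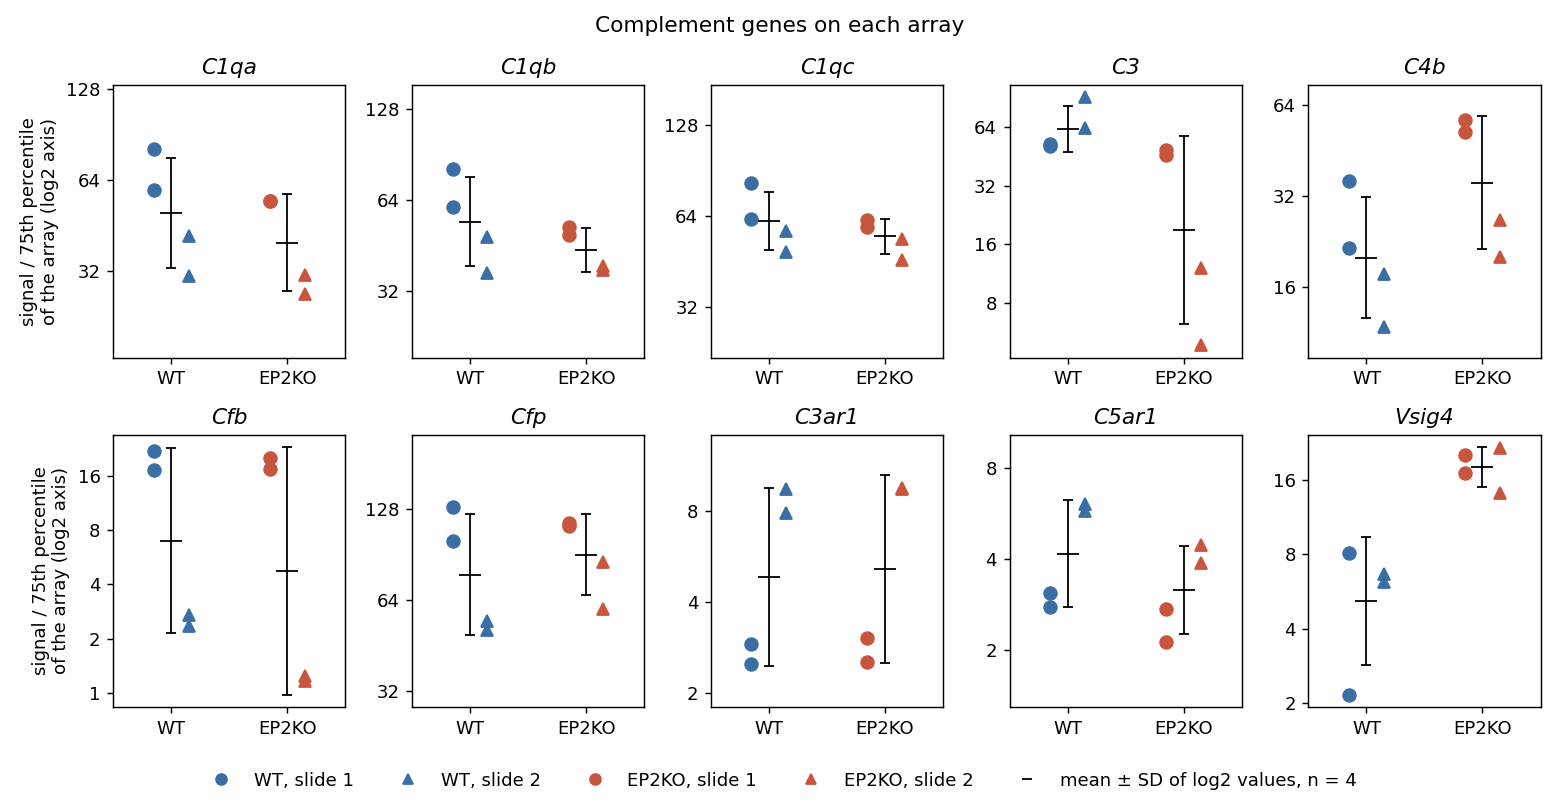
Signal of each complement gene on each array as a multiple of the array's 75th percentile (log2 axis), WT in blue and EP2KO in red, slide 1 as circles and slide 2 as triangles; black bars are the mean ± SD of log2 values (n = 4 per genotype). For Vsig4 all EP2KO values lie above all WT values, and for C3 both EP2KO arrays of slide 2 lie far below the other 6 arrays.

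Vsig4, the complement receptor of resident macrophages, was higher in EP2KO on both slides. Its signal in WT was 8.12, 2.16, 6.66 and 6.18 (WT 1 to 4), and in EP2KO it was 17.1, 20.2, 14.1 and 21.5. WT 2 was the lowest array, and the lowest EP2KO value stood above the highest WT value. The difference was 1.80 ± 0.41 with a 95% interval of 0.85 to 2.74, all in log2 units, which is a 3.47-fold higher signal. Slide 1 gave 2.15 and slide 2 gave 1.44. The exact permutation p (two-sided, 70 arrangements of the arrays) was 0.0286, and no lower value is possible with 4 against 4. The limma adjusted p was 1.00 over all features and 0.263 with the slide as a block, so the difference did not pass. Other genes of large resident peritoneal macrophages ran the same way in part: 10 of 12 were higher in EP2KO, with a median of 0.94. Of all features 43.4% were higher in EP2KO. Timd4, a receptor for dying cells, differed by 1.56 on slide 1 and 1.69 on slide 2. Gata6, the transcription factor that defines these cells, differed by 1.29 and -1.29. The summed signal of this list ran from 116 to 246 in WT and from 141 to 267 in EP2KO. Markers of other cells differed too. In EP2KO 7 of 8 mast cell genes were higher (median 1.73) and 9 of 9 T and NK cell genes lower (median -0.78). Also lower were 10 of 10 B cell (-0.46) and 7 of 8 dendritic cell genes (-0.42). So were 7 of 9 genes of monocytes and small peritoneal macrophages (-0.33) and 5 of 8 of neutrophils (-0.07). Of 11 macrophage genes 6 were higher and 5 lower (0.01). At an unadjusted slide-blocked limma p under 0.05, 7 of 12 large peritoneal macrophage genes and 7 of 8 mast cell genes were higher. At that level 8 of 9 T and NK cell genes were lower, against 2.49% of all features higher and 4.85% lower. The summed mast cell signal was 2.89 to 19.3 in WT and 8.27 to 33.4 in EP2KO, and that of T and NK cells 2.19 to 6.55 and 1.78 to 2.77. The part of any of these lists in the Vsig4 difference was not tested.

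C3, the central protein on which the pathways converge, was low on 2 arrays. Its brighter probe read 51.1, 52.5, 63.3 and 91.5 in WT, and 48.8, 45.9, 12.02 and 4.82 in EP2KO. The EP2KO arrays of slide 1 stood just under the lowest WT value, and those of slide 2 far under it. The other probe was low on the same 2 arrays, at 5.93 and 2.41, but on slide 1 its genotypes overlapped, with 20.73 and 20.53 in WT and 20.72 and 20.44 in EP2KO. The difference over all arrays was -1.73 ± 0.74, with -0.13 for slide 1 and -3.32 for slide 2. The exact permutation p was 0.0286 for the brighter probe, again the smallest the design allows, and 0.0571 for the other, and the limma adjusted p was 1.00 for both. The difference between slides was itself tested: the interaction of genotype and slide was -3.19 ± 0.59, with a limma adjusted p of 0.112, and did not pass (3 features passed, 0.0145% of all). C3 and Cfb were the 2 of 10 genes at an unadjusted interaction p under 0.05, against 21.1% of all features.

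On slide 2 stromal marker genes were lowest on EP2KO 3 and EP2KO 4, as C3 was. By summed signal they were also low on WT 2 of slide 1, where C3 was not. Of 15 measured markers of fibroblasts and mesothelium, 14 were higher in EP2KO on slide 1 and 15 lower on slide 2 (medians 1.00 and -3.60). All 15 were lower over the 8 arrays, where none passed and 43.4% of all features were higher. On slide 2 alone Msln, Upk3b and Igfbp6 passed as lower (limma adjusted p = 0.0428, 0.0478 and 0.0499), as did 1.43% of all features. The summed signal of the 15 markers was 126 on WT 3 and 141 on WT 4, against 26.7 on EP2KO 3 and 4.55 on EP2KO 4. On slide 1 it was 92.3 on WT 1, 22.0 on WT 2, 57.3 on EP2KO 1 and 94.5 on EP2KO 2. C3 was nearly level across those 4 arrays, at 45.9 to 52.5 by the brighter probe and 20.44 to 20.73 by the other. The list's range was 22.0 to 141 in WT and 4.55 to 94.5 in EP2KO, and its part in the C3 difference was not tested. Dcn, a fibroblast proteoglycan, differed by 0.40 on slide 1 and -4.05 on slide 2.

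**Figure D2:**
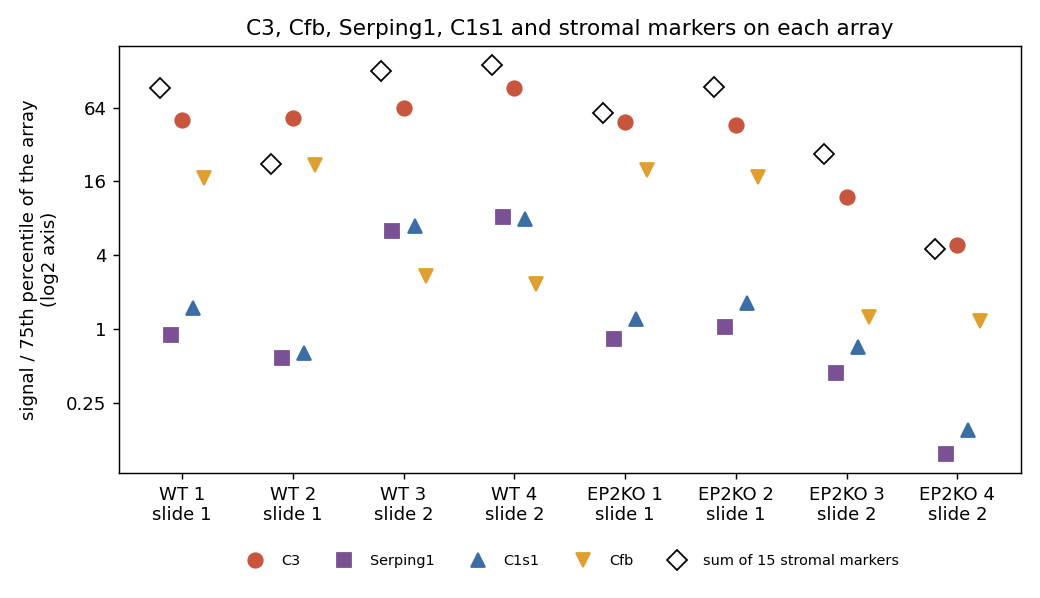
Signal of C3, Cfb, Serping1 and C1s1, and the summed signal of 15 fibroblast and mesothelial markers, on each array (log2 axis, multiples of the array's 75th percentile, points shifted sideways so that none is hidden). On slide 2 C3, Serping1, C1s1 and the stromal sum are all lowest on EP2KO 3 and EP2KO 4, while on slide 1 the stromal sum ranges from 22.0 to 94.5 and C3 only from 45.9 to 52.5.

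C4b, which encodes complement C4 of the classical pathway, was higher in EP2KO within each slide: 21.5 and 35.8 on WT 1 and WT 2 against 56.9 and 51.9 on EP2KO 1 and EP2KO 2, then 11.8 and 17.7 on WT 3 and WT 4 against 20.0 and 26.6 on EP2KO 3 and EP2KO 4. Within each slide the genotypes did not overlap, which held for 49.5% of all features on slide 1 and 50.7% on slide 2. Across slides they did overlap, since WT 2 stood above both EP2KO arrays of slide 2. The difference was 0.82 ± 0.45 without a slide term (limma adjusted p = 1.00) and 0.82 ± 0.22 with it (limma adjusted p = 0.363). C4a, a near-identical copy, has no named probe here, and signal from it at the C4b probe cannot be told apart.

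The 3 C1q chains had small negative differences. C1qa read 59.2, 80.9, 41.8 and 30.9 in WT and 54.3, 54.6, 26.9 and 31.1 in EP2KO. C1qb read 60.7, 80.7, 48.0 and 36.4 against 51.9, 49.0, 37.4 and 38.4. C1qc read 62.6, 82.4, 56.9 and 48.4 against 58.7, 62.0, 45.7 and 53.8. For each chain WT 2 was the highest array, and the genotypes overlapped on slide 2 but not on slide 1. On slide 1 they did not overlap for 49.5% of all features either. The differences were -0.33 ± 0.37, -0.31 ± 0.26 and -0.17 ± 0.19, all with a limma adjusted p of 1.00. Their 95% intervals, -1.18 to 0.52, -0.91 to 0.30 and -0.62 to 0.28, leave room for changes of either sign. With the slide as a block the intervals narrowed to -0.68 to 0.02, -0.66 to 0.04 and -0.47 to 0.14.

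The C1q genes were the most alike of all pairs among the 10. After each gene was centred on its own mean, the root mean square distance over the 8 arrays was 0.15 log2 units between C1qb and C1qc, 0.20 between C1qa and C1qb and 0.30 between C1qa and C1qc. The next pair, C1qa and Cfp, stood at 0.33, and the least alike, Cfb and C3ar1, at 2.63. This distance is not scaled, so genes of narrow range can lie closer. The log2 range over the arrays was 1.59, 1.15 and 0.85 for C1qa, C1qb and C1qc. It was 1.36 for Cfp and 4.24 for Cfb.

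The alternative pathway genes Cfb and Cfp both had higher signal on slide 1. Cfb, the protease subunit of the C3-cleaving enzyme, read 17.2 and 22.0 on WT 1 and WT 2, and 2.72 and 2.34 on WT 3 and WT 4. On EP2KO 1 to 4 it read 20.0, 17.5, 1.25 and 1.17. The genotypes overlapped on slide 1. They separated on slide 2, which held for 50.7% of all features, and EP2KO was 2.09-fold lower there. The difference was -0.56 ± 1.26 without a slide term, with an interval of -3.47 to 2.35, and -0.56 ± 0.22 with the slide as a block (limma adjusted p = 0.635). Within slides it was -0.06 and -1.06. The sign over all arrays rests on the EP2KO arrays of slide 2: it was 0.08 without EP2KO 3 and 0.12 without EP2KO 4. Cfp, properdin, read 100.1, 130.3, 50.8 and 54.5 in WT and 112.7, 115.4, 59.5 and 85.4 in EP2KO. Its difference was 0.22 ± 0.37 (limma adjusted p = 1.00; interval -0.63 to 1.07), with 0.00 for slide 1 and 0.44 for slide 2.

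The receptors of the C3a and C5a fragments differed less between genotypes than between slides. C3ar1 read 2.91, 2.50, 7.88 and 9.46 in WT and 2.53, 3.04, 9.43 and 9.55 in EP2KO, a difference of 0.09 ± 0.63. C5ar1 read 2.77, 3.10, 6.07 and 5.78 in WT and 2.13, 2.73, 3.87 and 4.47 in EP2KO. Genotypes did not overlap for 49.5% of all features on slide 1 and 50.7% on slide 2. On each slide both EP2KO values of C5ar1 also lay under both WT values. Its difference was -0.40 ± 0.35 without a slide term and -0.40 ± 0.12 with it, and the limma adjusted p was 1.00 and 0.471. For C3ar1 the interval was -1.37 to 1.55, and -0.18 to 0.36 with the slide as a block, a range within which a 2-fold change does not lie.

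**Figure D3:**
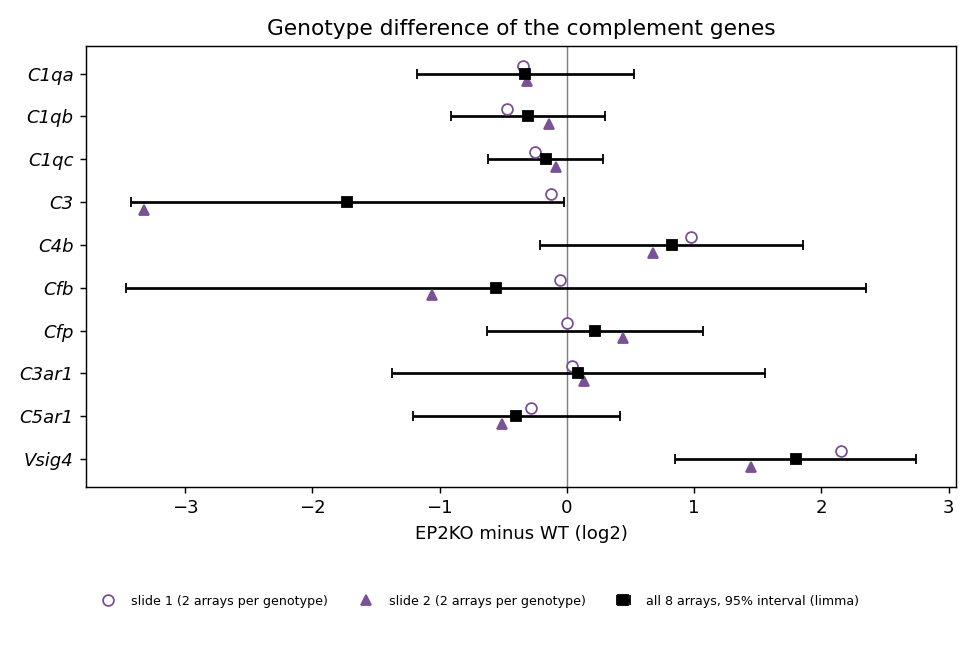
EP2KO minus WT (log2) for each gene over all 8 arrays with its 95% interval from limma (black squares), and the plain difference on slide 1 (open circles) and slide 2 (triangles), each from 2 arrays per genotype. Vsig4 and C4b are above 0 on both slides, and C3 is near 0 on slide 1 and at -3.32 on slide 2.

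Between the slides 7 of the 10 genes changed at a limma adjusted p of 0.05 with genotype in the model, against 43.2% of all features. On slide 2, 5 were lower (C1qa, C1qb, C4b, Cfb and Cfp), where 18.2% of all features were. The other 2, the fragment receptors C3ar1 and C5ar1, were higher, where 25.1% of all features were. Cfb had the largest change of the 10: it was 10.9-fold lower on slide 2 (-3.45 ± 0.22; limma adjusted p = 0.000101). C3ar1 was 3.31-fold higher (1.73 ± 0.11; limma adjusted p = 0.000109) and C5ar1 1.87-fold higher (0.90 ± 0.12; limma adjusted p = 0.00142). C4b was 2.12-fold lower, C1qa 1.90-fold, Cfp 1.86-fold and C1qb 1.49-fold. C1qc (-0.37 ± 0.13; limma adjusted p = 0.0555), C3 (-1.04 ± 0.66) and Vsig4 (0.26 ± 0.41) did not pass. The slides did not overlap for 7 of the 10 genes (the C1q chains, Cfb, Cfp and both fragment receptors), against 43% of all features. Most marker lists differed between the slides as well, at a limma adjusted p of 0.05. Lower on slide 2 were 10 of 12 large peritoneal macrophage, 8 of 10 B cell, 7 of 8 mast cell and 7 of 9 T and NK cell genes. Higher were 1, 1, 0 and 0 of them. For monocytes, neutrophils and dendritic cells 5 of 9, 4 of 8 and 4 of 8 were lower and 1, 1 and 0 higher. Of 11 macrophage genes 3 were lower and 2 higher, and of 15 stromal genes 0 either way. Summed macrophage signal was 270 to 357 on slide 1 and 226 to 332 on slide 2. The part of these cells, of the slide and of the scan day in the changes was not tested.

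**Figure D4:**
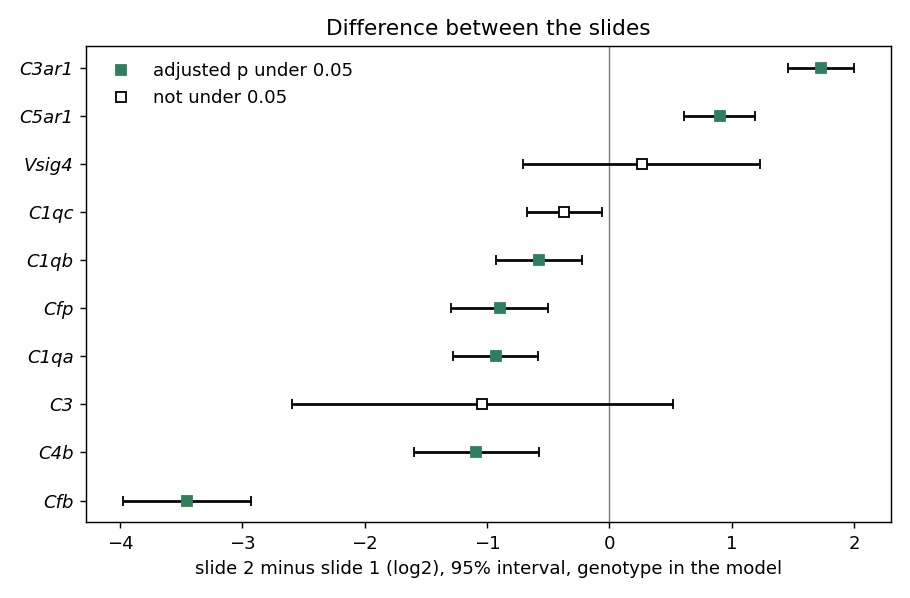
Slide 2 minus slide 1 (log2) for each gene with its 95% interval, from a limma fit with genotype in the model (8 arrays, 4 per slide). Filled squares passed an adjusted p of 0.05: C3ar1 and C5ar1 are higher on slide 2, and Cfb, C4b, C1qa, Cfp and C1qb lower.

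The wider pathway was read from a list of 56 other complement genes, of which 55 had a probe and 32 were tested. The remaining 23 were not well above background on all arrays of either genotype. They included the lytic components C7, C8a, C8b and C9, the lectin pathway genes Masp1, Masp2, Mbl1 and Mbl2, and Cfd, the protease that activates factor B. Of the 32, 0 passed in either direction in EP2KO against WT, with or without the slide as a block. At an unadjusted p under 0.05, 1 was higher (Cd209b) and 1 lower (Colec11), against 1.98% of all features. With the slide as a block 2 were higher (Cd93 and Cd209b) and 2 lower (Colec11 and Susd4), against 7.34%. Cd209b and Susd4 were kept only through the genotype in which they were high, so their part in these counts carries no weight. Of the 32 genes 10 were higher and 22 lower, where 43.4% of all features were higher. The median difference of the 32 was -0.14, and it was 0.16 on slide 1 and -0.41 on slide 2. The corresponding medians of all features were -0.03, -0.09 and 0.05. The sign was the same on both slides for 8 of 32, against 9 of the 10 genes above and 36.3% of all features.

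The 4 of these genes with the smallest slide-blocked p among those higher in EP2KO were Cd93, Cd209b, Itgb2 and Lrp1. Cd93, a membrane lectin once taken for a C1q receptor, read 15.1, 11.8, 59.5 and 57.5 in WT and 25.5, 28.8, 80.1 and 83.5 in EP2KO. It was higher in EP2KO on each slide (0.75 ± 0.15 with the slide as a block; limma adjusted p = 0.234). Cd209b, a lectin receptor, was dim, at 0.007 to 0.015 in WT and 0.015 to 0.100 in EP2KO. It was well above background on 3 of 4 WT arrays and was tested through the EP2KO arrays, on which it was high. Itgb2, the beta chain of complement receptors 3 and 4, differed by 0.20, and Lrp1, an uptake receptor for which calreticulin and C1q serve as bridges, by 0.29.

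On the lower side the 4 were Colec11, Susd4, Cd55 and Serping1, each apart mainly on slide 2. Cd55 encodes a regulator that takes C3-cleaving enzymes apart. It read 2.59, 1.79, 1.94 and 1.59 in WT and 2.80, 1.92, 0.48 and 0.40 in EP2KO. Serping1, the C1 inhibitor, read 0.90, 0.59, 6.32 and 8.19 in WT and 0.83, 1.04, 0.44 and 0.10 in EP2KO. Its difference was 0.35 on slide 1 and -5.12 on slide 2. Colec11, a soluble lectin, differed by -0.20 and -1.66 on slides 1 and 2. Susd4, a regulator tested through the WT arrays, differed by -0.31 on slide 1, and on slide 2, where neither EP2KO array was well above background, it was at least 4.51-fold lower.

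Slide 2 taken alone called 5 of 38 tested genes of this list, all lower in EP2KO. Of 22922 features 1.48% were called, 1.43% lower and 0.0567% higher. The count of 5 includes Cfi, which entered the test through the WT arrays alone and adds no weight to it. None of the 10 genes was among the 5, C3, Cfb and Vsig4 having limma adjusted p values of 0.0770, 0.0743 and 0.0931. The 5, named because the count is small, were Cfi, C2, Cd55b, Cd55 and C1ra. C2, the serine protease of the classical C3-cleaving enzyme and the neighbour of Cfb on chromosome 17, read 2.84 and 3.64 on WT 3 and WT 4 and 0.43 and 0.46 on EP2KO 3 and EP2KO 4 (-2.86 ± 0.19; limma adjusted p = 0.0267). C1ra, a protease of the C1 complex, fell by 2.27 ± 0.22 on the log2 scale (limma adjusted p = 0.0430), and signal from its close copy C1rb cannot be told apart. Cd55 fell by 2.00 ± 0.19 and its copy Cd55b by 1.60 ± 0.14 (limma adjusted p = 0.0429 and 0.0411). Signal shared between Cd55 and Cd55b cannot be told apart. Cfi, factor I, was well above background on both WT arrays and on neither EP2KO array of slide 2, and was at least 3.86-fold lower (limma adjusted p = 0.0265). It entered the test through WT alone, so its p-value rests on EP2KO values not well above background and carries no weight here. The other 4 were well above background on every array. On slide 1 the same fit called 0 of 34 genes, and 0 of all 21981 features. C1ra stood the other way there, at 1.55 and 1.38 in WT and 2.95 and 3.50 in EP2KO. The limma adjusted p of its interaction was 0.0670, which missed the threshold, as did that of every other gene of the list. C1s1, the protease partner of C1r, read 6.92 and 7.90 on WT 3 and WT 4 and 0.72 and 0.15 on EP2KO 3 and EP2KO 4, the arrays of lowest summed stromal signal on slide 2. The close copies C1s1 and C1s2 can share signal.

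**Figure D5:**
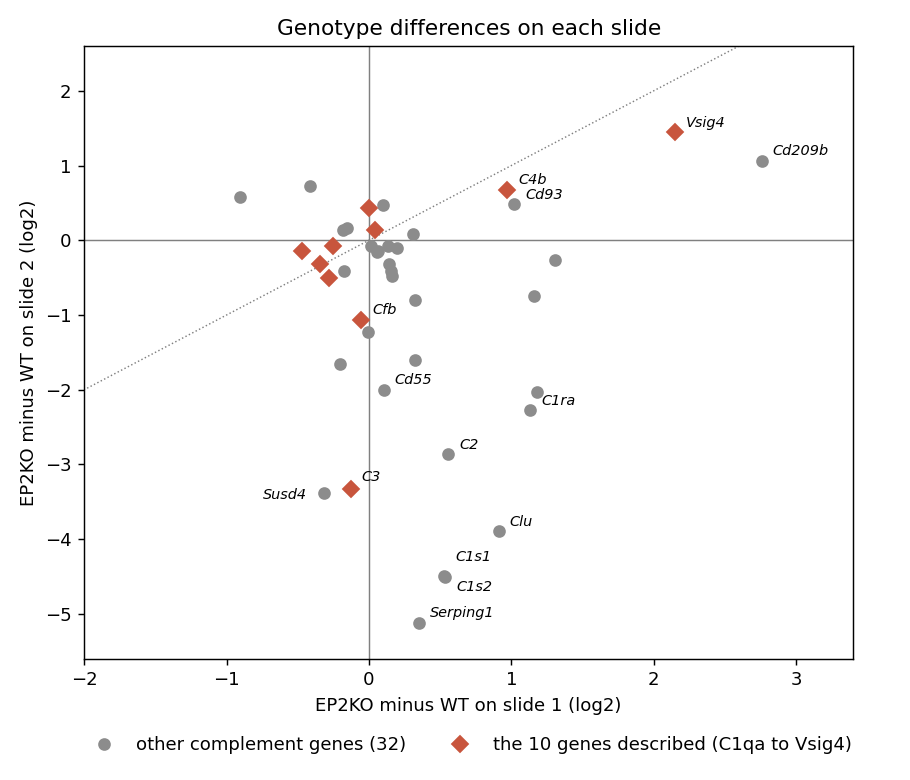
EP2KO minus WT (log2) on slide 1 (horizontal) against slide 2 (vertical), each from 2 arrays per genotype, for the 10 complement genes (red diamonds) and 32 other complement genes (grey); the dotted line marks equal differences. Serping1, C1s1, C1s2, Clu, C2 and C1ra lie above 0 on slide 1 and below -2 on slide 2, whereas Vsig4, C4b, Cd93 and Cd209b lie above 0 on both.

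Genes most like Vsig4 over the 8 arrays, by root mean square distance of centred log2 values, were Rnase4 (0.25), Sobp (0.36), Clec1b (0.41) and Sox7 (0.47), against a range of 3.32 for Vsig4 itself. Rnase4, a secreted ribonuclease, read 1.72, 0.73, 2.02 and 1.62 in WT and 3.93, 5.25, 5.18 and 6.18 in EP2KO, so it too was lowest on WT 2 and higher on all EP2KO arrays. The mean of the C1q chains had a narrower range of 1.18, and its nearest genes were Ampd3 (0.09), Gng10 (0.09), Polb (0.09) and Limk1 (0.09). Likeness here is over 8 arrays that share slides and genotype.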

How the data were processed

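The authors deposited Agilent 1-colour (Cy3) scanner files of 8 arrays, 4 per genotype, holding the intensity of each spot, not log-transformed. The extraction software was Feature Extraction 10.7.1.1 and the design's build mm9, per the file headers, while version 9.1 stands in the submitters' processing notes. The deposited series table holds the same intensity values (largest log2 difference 0). Per the labels' protocols, 0.5 µg of RNA was labelled per sample.

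The log2 processed signal minus each array's 75th percentile (987 to 1508 before scaling) was used; array number limits precision. Control spots (1377 of 44397) were left out, and outlier-flagged spots were set missing. Probes were named by RefSeq transcript (GRCm38.p6 table, 27508 of 39429 named). A probe was kept when well above background on all arrays of a genotype, and the brightest stood for its gene. Genotypes were compared with limma 3.58.1 (R 4.3.3), two-sided, Benjamini-Hochberg adjusted over all 20738 features; the method was tested on simulated data. The slide was taken from the headers. Same-numbered arrays deviated together (r = 0.74, 0.12, 0.55 and 0.43 across features, which are not replicates), but share a slide too; by the rule used, every r above 0.1, the number is also tried as a block. The planned normexp alternative used the median spot signal in place of the mean.

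Named were Ptger2, the 10 genes, 4 list genes per direction with the smallest slide-blocked p, the 4 nearest patterns and defining markers; C1s1, C1s2, Clu and the 5 called on slide 2 were added after values were seen. Members and lists were chosen with earlier results of these data known.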

Additional observations from a re-analysis of the deposited data

How the results depend on the processing

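None of the 10 complement genes passed under any of the 23 alternatives. Vsig4, C4b, C3, C5ar1, C1qb and C1qc kept their sign in all of them (Vsig4 from 1.29 to 2.15, C4b from 0.57 to 1.24, C3 from -3.32 to -0.13). The count of all features called, 2 as reported, was 4 with the slide as a block or a random block, 0 with the replicate block, 0 on slide 1 alone, 340 on slide 2 alone and 0 to 4 with 1 array left out (0 without WT 1, WT 3, EP2KO 2, EP2KO 3 or EP2KO 4). The replicate block changed no call among the complement genes. The 5 further complement genes called on slide 2 alone are given above, with Cfi among them through the WT arrays only. The other alternatives called 0. Signs turned for C3ar1 with array weights (-0.082, an estimate that stopped before converging) and, with 1 array left out, from -0.23 to 0.43; for Cfp on slide 1 alone (-0.0017); and for Cfb with 1 array left out, from -1.25 to 0.12. Leaving out WT 2 and EP2KO 4 together, an alternative chosen after seeing the data, gave 1 called feature and turned C1qa (0.021), Cfb (0.67) and C3ar1 (-0.53). The cause was not tested. The same 7 genes differed between slides under most alternatives run. With normexp, and with WT 2 and EP2KO 4 left out together, C1qb dropped out and 6 remained. The interaction count stayed 0 under the alternatives run for it.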

Other observations

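For each gene the gap of the highest or lowest array to its nearest neighbour was divided by the range of its genotype. None of 46 groups of 4 arrays exceeded the critical value of 0.829. The groups were the 10 genes, Ptger2 and 12 other complement genes, in each genotype. Chance would give about 2.3 groups above it if all 4 values came from 1 normal population. Each group joined 2 arrays of each slide, however. A difference between slides widens the range, so an outlying array can be missed.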
